A study of Homo sapiens with 4 samples.

Results

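The zinc finger gene clusters of human chromosome 19 held 523 of the 2393 distinct peaks of that chromosome and of the 160601 distinct peaks of the whole list. A peak is a region in which an H3K4me1 library from HepG2 cells depleted of LSD2 gave more reads than an H3K4me1 library from control cells, as called by the authors. Its place decided membership, with no measured value involved: the midpoint had to fall in 1 of 6 fixed stretches of chromosome 19 on hg19. In order along the chromosome these ran from 11.6 to 12.7 Mb, 19.8 to 24.4 Mb, 36.8 to 38.3 Mb, 44.3 to 45.0 Mb, 52.3 to 54.0 Mb and 56.2 to 59.1 Mb, and they are numbered 1 to 6 below. Together they span 12.5 Mb. The rest of the chromosome held 1870 peaks on 43.4 Mb.

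HepG2 cells come from a human liver cancer and grow as an established line. The knockdown cells had received an siRNA against LSD2 and the control cells an siRNA that the file header calls GL3, the name of a luciferase sequence. Chromatin of both was precipitated with an antibody against H3K4me1, and unprecipitated input chromatin of both was sequenced as well, for 4 samples in all. Each condition has 1 library per antibody, so no test between conditions was possible, and the depth of the libraries is unknown. All cells carry the same HepG2 background, and the labels give no time after transfection. The level of LSD2 itself was not analysed here.

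LSD2, encoded by KDM1B, is a demethylase that removes methyl groups from lysine 4 of histone H3, and H3K4me1 is the monomethylated state found at enhancers and beside promoters. KRAB zinc finger genes form the largest family of human transcription factor genes and arose by repeated local duplication, which left them side by side in clusters. Their proteins join a KRAB domain to a tandem array of C2H2 zinc fingers that reads DNA. The KRAB domain binds the corepressor TRIM28, which brings in the H3K9 methyltransferase SETDB1 and heterochromatin proteins. The clusters themselves are known for carrying H3K9me3 over the zinc finger exons of many of the genes, a mark of repressed chromatin.

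Chromosome 19 is the main home of these genes. In the gene table at hand (RefSeq, GRCh38.p14), 266 of the 574 protein-coding genes with a zinc finger family symbol (46.3%) were on chromosome 19, and chromosome 7 followed with 39. The symbols do not tell which of them encode a KRAB domain. On chromosome 19, 227 of the 266 stood in 7 runs of at least 10 such genes with at most 3 other genes between neighbours. In order, the runs went from ZNF317 to ZNF846 (12 genes), ZNF627 to ZNF791 (24), ZNF101 to ZNF254 (37), ZNF565 to ZNF573 (29), ZNF283 to ZNF180 (20), ZNF577 to ZNF331 (40) and ZNF787 to ZNF446 (65). There are 7 runs and 6 stretches, and zinc finger genes outside the runs number 39, so the rest of the chromosome is not free of such genes. The table uses another build than the peaks, so its positions were not set against them, and no peak is assigned to a gene.

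Some members of these runs have known roles. ZNF91 and ZNF93, in the run from ZNF101 to ZNF254, silence retrotransposons of the SVA and LINE-1 families. ZNF274, in the last run, binds the ends of other zinc finger genes and recruits SETDB1 there. The same run holds PEG3 and its neighbour ZIM2, which are imprinted, and ZSCAN4, a gene of the earliest embryo. TRIM28 itself follows this run closely, between ZBTB45 and CHMP2A. Other families also sit among the zinc finger genes, such as PPP2R1A, a subunit of protein phosphatase 2A, between ZNF836 and ZNF766.

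The clusters carried about as many peaks for their length as the rest of chromosome 19, but narrower ones. Density was 41.8 peaks per Mb in the clusters (95% exact Poisson interval 38.3 to 45.6) and 43.1 in the rest (41.2 to 45.1). The ratio was 0.971, with an exact interval of 0.880 to 1.07, so no difference in density was detectable. Median width was 298 bp in the clusters (95% order-statistic interval 287 to 313) and 333 bp in the rest (323 to 341). These intervals did not overlap. The intervals given here and below assume that peaks occur independently, they cover counting error alone, and peaks are not replicates. In windows of 100 kb the variance of the counts was 1.73 times their mean in the clusters and 1.49 times in the rest. Independent peaks of even density would give equal variance and mean, so the intervals are likely too narrow, by an amount that was not estimated.

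**Figure D1:**
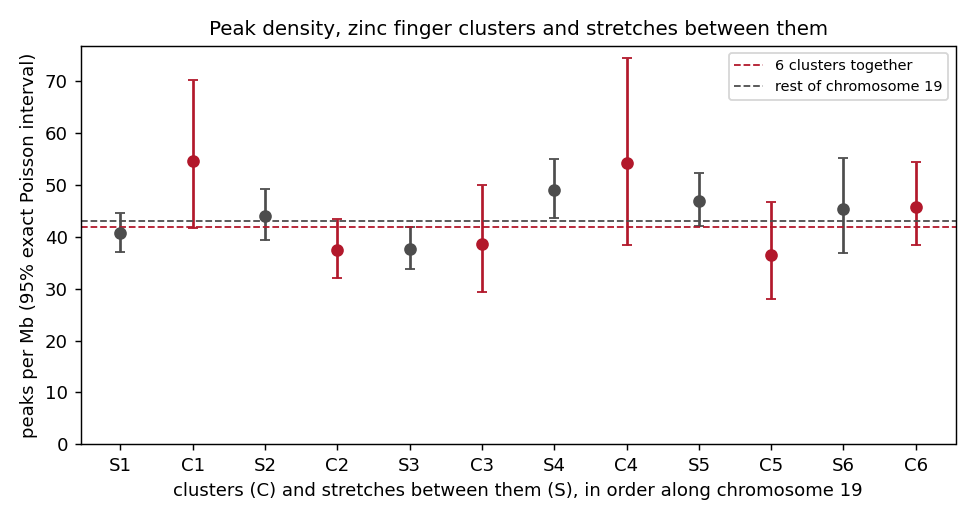
Peaks per Mb (vertical axis) in the 6 clusters (C1 to C6, red) and the 6 stretches before and between them (S1 to S6, grey), in order along chromosome 19. Points are densities, bars are 95% exact Poisson intervals and dashed lines are the pooled values, 41.8 for the clusters and 43.1 for the rest; clusters and stretches interleave.

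Density varied more among the clusters than among the stretches around them. The stretches are mostly longer and hold more peaks, so their densities carry less counting error. How much of the wider spread is counting error was not estimated. Clusters 1 and 4 were the densest, with 60 peaks at 54.5 per Mb (41.6 to 70.2) and 38 peaks at 54.3 per Mb (38.4 to 74.5). Cluster 6 was intermediate, with 133 peaks at 45.9 per Mb (38.4 to 54.4). Cluster 3 had 58 peaks at 38.7 per Mb (29.4 to 50.0), cluster 2 had 172 at 37.4 (32.01 to 43.4) and cluster 5 had 62 at 36.5 (28.0 to 46.8). The first 3 in this order therefore lay above the rest of the chromosome and the last 3 below it. All 6 intervals overlapped one another, however, and each took in the 43.1 per Mb of the rest. The mean over clusters was 44.5 ± 8.34 peaks per Mb (SD, n = 6 regions), against 43.99 ± 4.16 over the stretches (SD, n = 6 regions), which ranged from 37.7 to 49.0. The plot of density by region shows this interleaving.

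Every cluster had a lower median width than every stretch around it. The medians were 290 bp in cluster 1, 288.5 bp in cluster 2, 308 bp in cluster 3, 294 bp in cluster 4, 312 bp in cluster 5 and 300 bp in cluster 6. The 6 stretches had medians from 317 to 344 bp, so the 2 sets of regions did not overlap. The mean of the medians was 299 ± 9.66 bp over the clusters (SD, n = 6 regions) and 331 ± 11.7 bp over the stretches (SD, n = 6 regions). The interval of a single small cluster was wide, for example 244 to 357 bp in cluster 4, and reached into the range of the stretches in all 6. No test over regions was made.

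**Figure D2:**
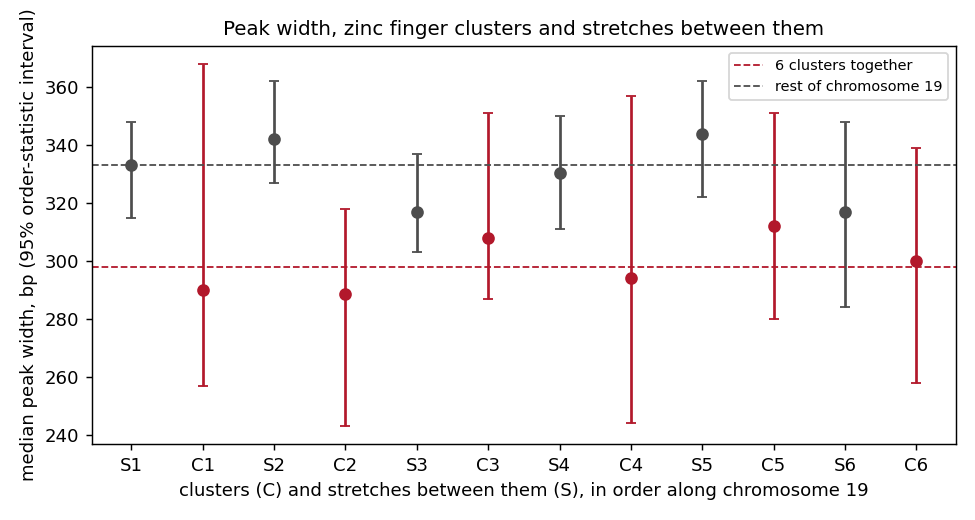
Median peak width in bp (vertical axis) in the 6 clusters (red) and the 6 stretches before and between them (grey), in order along chromosome 19. Points are medians, bars are 95% order-statistic intervals and dashed lines the pooled medians of 298 and 333 bp; all 6 cluster medians lie under the lowest stretch median of 317 bp.

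The clusters also stood low against whole autosomes. All 22 autosomes had a higher median width than the clusters, ranging from 306 to 334 bp, and the median of the whole list was 316 bp. The interval of the cluster median, 287 to 313 bp, takes in several of them, such as chromosomes 4 (308 bp), 5 (306 bp) and 18 (307 bp). Chromosomes X and Y had lower medians than the clusters, 288 and 292 bp. Of the cluster peaks, 20.8% (95% Wilson interval 17.6 to 24.5%) reached 396 bp, the upper quartile of the list. In the rest of chromosome 19 this share was 30.5% (28.4 to 32.6%), a difference of -9.64 percentage points (95% Newcombe interval -13.5 to -5.42). On the 22 autosomes it ranged from 21.3% to 33.2%, the lowest of them inside the interval of the clusters, and on X and Y it was 14.8% and 22.2%. The rest of chromosome 19 was thus above the list in width while the clusters on the same chromosome were below it. All chromosomes but Y, which had 221, hold more peaks than the clusters, so their values carry less counting error.

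The deficit was in the wide peaks. Only 14 cluster peaks reached 600 bp, 1.12 per Mb, against 150 in the rest at 3.46 per Mb, a ratio of 0.324 (exact interval 0.173 to 0.561). With peaks within 1 kb of each other merged the ratio was 0.516. From 500 to under 600 bp the ratio was 0.682 (0.416 to 1.07), from 400 to under 500 bp 0.818 (0.616 to 1.07) and from 300 to under 400 bp 0.951 (0.792 to 1.14). Narrow peaks went the other way: the ratio was 1.20 (1.005 to 1.44) from 200 to under 300 bp and 1.25 (0.973 to 1.58) under 200 bp. The interval excluded 1 in the widest class and, only just, in the class from 200 to under 300 bp. The 600 bp limit was chosen after the widths had been seen.

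**Figure D3:**
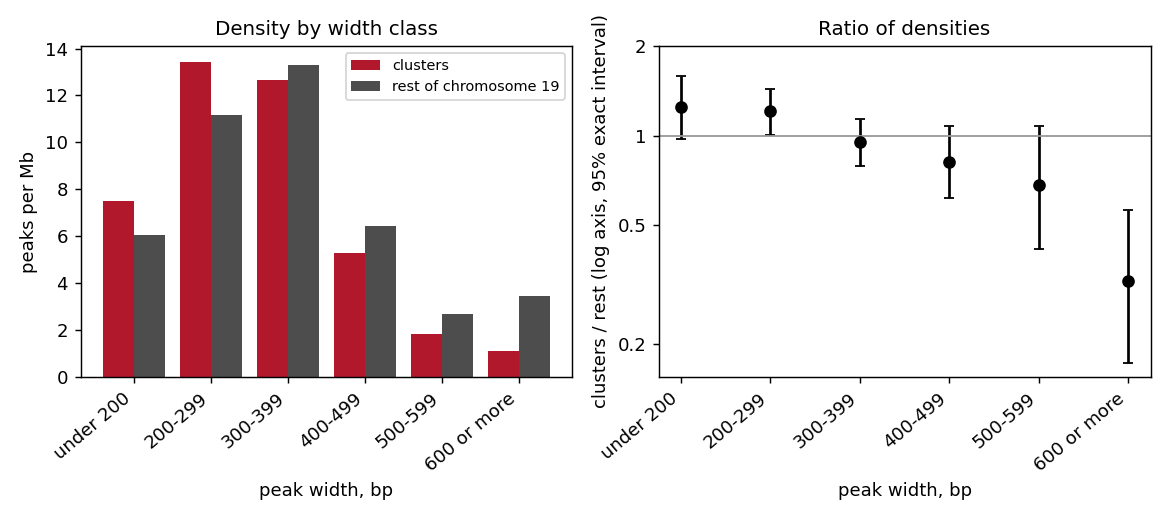
Left, peaks per Mb by width class in bp in the clusters (red) and the rest of chromosome 19 (grey). Right, the ratio of the densities in each class on a log axis, with 95% exact intervals; the ratio falls from 1.25 under 200 bp to 0.324 at 600 bp or more.

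Because the peaks were narrower at a similar density, less of the cluster DNA was covered. Peaks covered 13.1 bp per kb in the clusters and 15.4 bp per kb in the rest, a ratio of 0.852. Cluster 1 covered the most, 18.3 bp per kb, and cluster 2 the least, 11.2 bp per kb. The stretches ranged from 12.8 to 17.5 bp per kb. Clusters 2, 3 and 5, at 11.2, 12.4 and 11.6 bp per kb, were below every stretch.

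Wide peaks were unevenly spread among the clusters. Cluster 2 held 5 of the 14 peaks of at least 600 bp, cluster 1 held 4, cluster 6 held 3, cluster 3 held 2, and clusters 4 and 5 held 0. For its length cluster 1 had the most, 3.64 per Mb (exact Poisson interval 0.991 to 9.31), which lay within the range of 1.82 to 4.79 per Mb of the stretches. The exact Poisson interval of the 0 reached 2.17 per Mb in cluster 5 and 5.27 per Mb in cluster 4. Neither cluster was thus set apart from the range of the stretches. No cluster peak was 1 kb or wider. Counting 3 peaks behind a 0, 523 peaks allow a share of up to 0.574%. In the rest 11 peaks (0.588%) were that wide, so a difference at that width was not detectable.

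The 10 widest cluster peaks lay in clusters 1, 2 and 6. The widest, 900 bp, was at chr19:21393055-21393954 in cluster 2, followed by 819 bp at chr19:58901496-58902314 in cluster 6. Cluster 1 held 4 of the 10, from 659 bp at chr19:11842571-11843229 to 757 bp at chr19:11907521-11908277, with 686 bp at chr19:12401093-12401778 and 681 bp at chr19:11846334-11847014 between them. Cluster 6 also held 757 bp at chr19:58362242-58362998 and 752 bp at chr19:57923183-57923934. The other two were in cluster 2, 651 bp at chr19:21950648-21951298 and 637 bp at chr19:19887863-19888499. In the other clusters the widest peak was 609 bp in cluster 3 (chr19:37004373-37004981), 580 bp in cluster 4 (chr19:44861330-44861909) and 566 bp in cluster 5 (chr19:52471879-52472444). The rest of the chromosome reached 1541 bp.

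Spacing in the clusters was close to that of the rest of the chromosome. The gap from the end of a peak to the start of the next had a median of 14.3 kb in the clusters (95% order-statistic interval 12.3 to 17.0) and 14.4 kb in the rest (13.3 to 15.4). The quartiles were 5.17 and 30.9 kb against 4.81 and 31.1 kb. Cluster medians ran from 8.38 kb in cluster 4 through 12.1 kb in cluster 1, 12.9 kb in cluster 6, 15.4 kb in cluster 3 and 16.3 kb in cluster 5 to 18.0 kb in cluster 2. On the other autosomes the median gap was 9.92 kb (9.84 to 10.0), shorter than in either set. The clusters shared this low density with the rest of their chromosome, at 0.713 (0.653 to 0.777) of the density of the other autosomes.

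**Figure D4:**
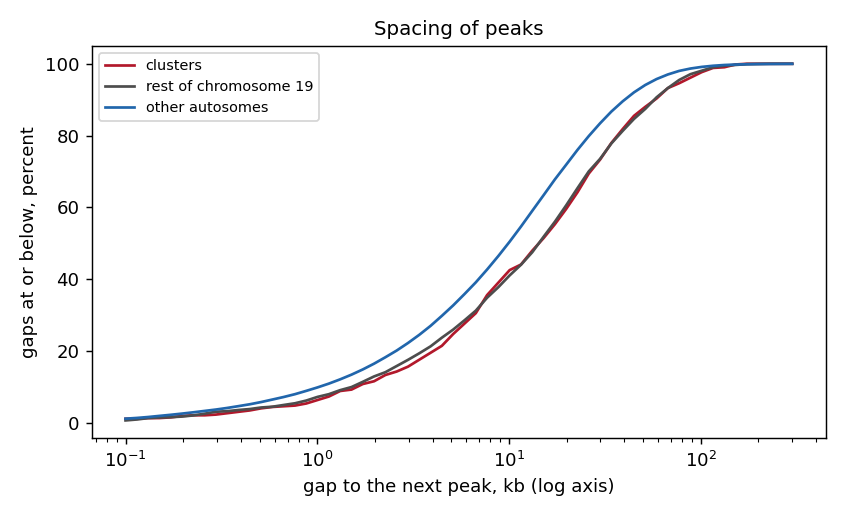
Percent of gaps at or below a given length (vertical axis) against gap length in kb on a log axis, for the clusters (red), the rest of chromosome 19 (grey) and the other autosomes (blue). The curves of clusters and rest run close together, with medians of 14.3 and 14.4 kb, and the other autosomes lie to their left with 9.92 kb.

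No difference in close neighbours between the clusters and the rest was detectable. Another peak lay within 5 kb of 40.7% of the cluster peaks (36.6 to 45.0%) and of 43.2% of the others (41.0 to 45.5%), a difference of -2.48 percentage points (-7.19 to 2.33). By cluster the share ran from 29.3% in cluster 3 (19.2 to 42.0%) to 53.3% in cluster 1 (40.9 to 65.4%). Width differed with closeness outside the clusters. Peaks of the rest with a neighbour within 5 kb had a median of 347.5 bp (336 to 359), against 321.5 bp (313 to 333) without. In the clusters these medians were 300 bp (275 to 329) and 296.5 bp (282 to 313), and whether the 2 sets differ in this respect was not tested.

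Runs of at least 3 peaks with gaps of at most 5 kb held 93 of the cluster peaks (17.8%, 14.7 to 21.3%) in 26 runs. The share in the rest was 17.4% (15.8 to 19.2%). Clusters 2, 1 and 6 held 7, 6 and 6 of the runs, clusters 3 and 5 held 3 each and cluster 4 held 1. The longest run, in cluster 2 at chr19:21202819-21215518, had 6 peaks of 192 to 375 bp over 12.7 kb. A run of 5 peaks in cluster 1, chr19:11842571-11848725, was tighter and wider: its peaks of 659, 275, 681, 474 and 207 bp lay within 6.16 kb, with 28 bp between the 681 and 474 bp peaks. The other runs of 5 were at chr19:21323894-21335677 in cluster 2 and chr19:57387663-57396010 in cluster 6. In the run of cluster 6 all peaks were of similar width, 339 to 411 bp.

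Some neighbouring peaks were almost joined. In the clusters 6 gaps of 517 were under 100 bp (1.16%, 0.533 to 2.51%), against 13 of 1862 in the rest (0.698%, 0.408 to 1.19%). Besides the pair in cluster 1, they lay in the run of 6 in cluster 2 (68 and 91 bp), in cluster 3 after chr19:38143732-38143970 (79 bp), in cluster 5 after chr19:53973222-53973579 (57 bp) and in cluster 6 after chr19:59079876-59080181 (31 bp).

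At the other end of the scale were long stretches without a peak. Counting gaps between peaks of the same cluster, the clusters held 14 over 100 kb, 11.2 per 10 Mb (6.12 to 18.8), and the rest 37, 8.53 per 10 Mb (6.003 to 11.8). They took 13.6% of the length of the clusters and 10.8% of the rest. Cluster 2 had 7 of the 14, including the longest, 154 kb at chr19:21796740-21950647, and 151 kb at chr19:20460686-20611774, which only 1 peak of 339 bp separated from the next, of 130 kb. Cluster 5 had 3, the longest 149 kb at chr19:52861336-53010133, and cluster 6 had 3, the longest 140 kb at chr19:58372340-58512387. Cluster 4 had 1, of 104 kb at chr19:44335778-44440127. The longest such gap was 83.4 kb in cluster 1 (chr19:12403877-12487280) and 95.5 kb in cluster 3 (chr19:37957196-38052703). Cluster 3 also ends in a longer gap of 122326 bp that crosses its upper limit and is therefore not counted. Gaps over 100 kb that cross the lower limits of clusters 2 and 5 are not counted either. The longest gap of the rest was 205 kb, apart from a gap of 3.13 Mb that was left out of all lengths. A stretch without a peak may be unchanged, lower in the knockdown library or too thinly covered for a call.

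In windows of 100 kb the clusters and the rest had the same median and quartiles, 4 peaks with quartiles of 2 and 6, and the same maximum of 14. The 125 windows of the clusters averaged 4.18 ± 2.69 peaks (SD) and the 433 of the rest 4.30 ± 2.54 (SD). Of the cluster windows 6 were empty (4.80%), against 8 of the rest (1.85%), 2.48% on the other autosomes. The fullest cluster window, with 14 peaks, was chr19:11800001-11900000 in cluster 1. Taking the fullest window of each other cluster, there were 11 peaks at chr19:21300001-21400000 in cluster 2 and 10 each at chr19:44600001-44700000 in cluster 4 and chr19:58000001-58100000 in cluster 6. Clusters 1 and 2 each held a further window with 10 peaks, at chr19:12100001-12200000 and chr19:24200001-24300000. In clusters 3 and 5 the fullest windows held 8 peaks, at chr19:36800001-36900000 and chr19:53200001-53300000.

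Peak counts varied inside the longest clusters. In cluster 2, the first 4 windows of 1 Mb held 36, 52, 27 and 26 peaks, and the last 0.6 Mb held 31, which is 51.7 per Mb. The densest of the full windows, chr19:20800001-21800000, had 52.0 peaks per Mb (38.8 to 68.2) with a median width of 264 bp (210 to 302). The sparsest, chr19:22800001-23800000, had 26.0 per Mb (17.0 to 38.1) with a median of 334.5 bp (236 to 383). The intervals of density did not overlap, while those of width did. Both windows were picked as the extremes of the counts compared, so this lack of overlap supports no conclusion. In cluster 6 the 1 Mb windows held 40 and 64 peaks and the last 0.9 Mb held 29, at 32.2 per Mb (21.6 to 46.3). The middle window, chr19:57200001-58200000, had 64.0 per Mb (49.3 to 81.7), above the last, again a comparison of the extremes.

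Density showed no step at the limits of the clusters, and in bins of 250 kb the median width was lower inside than outside. Within 250 kb of a limit there were 48.7 peaks per Mb inside (41.1 to 57.2) and 49.7 outside (41.7 to 58.8). Farther in, density was 39.3 per Mb (32.1 to 47.5) from 250 to 500 kb and 35.2 (27.7 to 44.2) from 500 to 750 kb. Median width inside was 312.5 bp (296 to 346), 297 bp (278 to 336) and 268.5 bp (232 to 300) in these bins. Outside it was 342 bp (309 to 379), 352 bp (326 to 380) and 350 bp (320 to 389). In the pair of bins at the limit the intervals of width overlapped. The clusters contribute unequal lengths to the bins farther in, and cluster 4 is too short to reach the last, so distance from the limit and identity of the cluster cannot be told apart in them. Bins of 100 kb scattered without a clear step, with 43.3 peaks per Mb (32.4 to 56.8) just inside and 42.7 (31.4 to 56.8) just outside. The ratio of these densities was 1.01 (exact interval 0.670 to 1.54), so a moderate step in either direction would have gone undetected. In the 100 kb bins the median width was lower inside at each distance up to 500 kb except from 100 to 200 kb. There it was 346 bp inside (300 to 374) and 331 bp outside (236 to 373). Just at the limit it was 285.5 bp inside (225 to 352) and 342 bp outside (292 to 385). From 200 to 300 kb it was 310 bp inside (272 to 343) and 401 bp outside (347 to 420). Only in this last pair did the intervals not overlap. The medians inside and outside were 291 and 353 bp from 300 to 400 kb, and 294 and 328 bp from 400 to 500 kb.

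**Figure D5:**
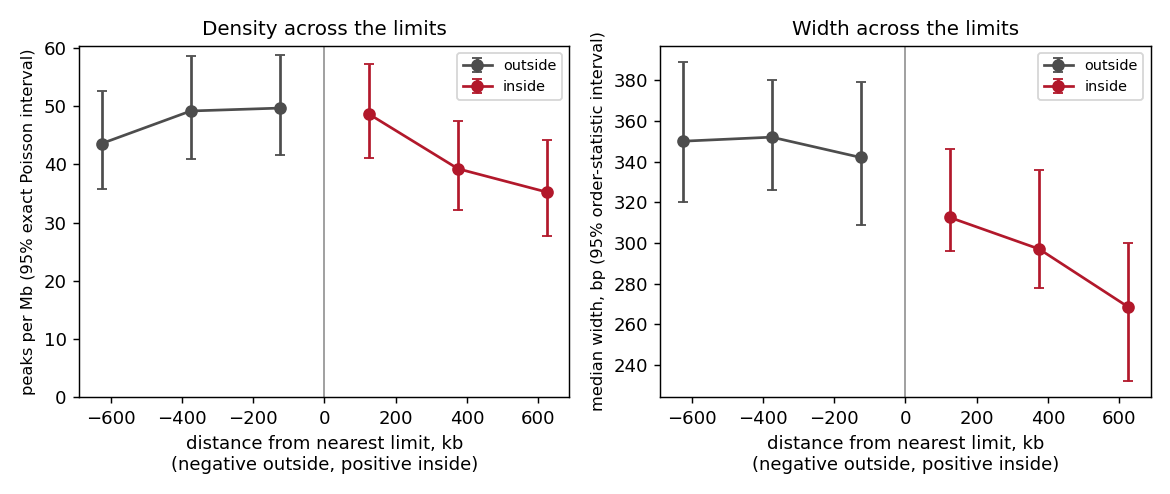
Peaks per Mb with 95% exact Poisson intervals (left) and median width in bp with 95% order-statistic intervals (right) against distance from the nearest cluster limit in kb, in bins of 250 kb, negative outside (grey) and positive inside (red). Density is 49.7 just outside and 48.7 just inside; width is 342 to 352 bp outside and 268.5 to 312.5 bp inside.

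The peaks nearest to the limits lay 2.84 to 116 kb inside and 0.742 to 92.0 kb outside, measured to the midpoint. The closest to a limit, 206 bp wide at chr19:24400640-24400845, lay just past the end of cluster 2 and is not a member. The farthest, chr19:38183512-38183813 at the upper end of cluster 3, was followed by no other member up to the limit. Moving all limits by 100 kb is one of the alternatives given in the closing section.

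The deposited list repeats some peaks in identical rows, and the file does not say what a repeat stands for. In the clusters 159 of the 523 peaks were listed more than once (30.4%, 26.6 to 34.5%). The share was 23.9% in the rest of chromosome 19 (22.0 to 25.8%), a difference of 6.55 percentage points (2.28 to 11.04). On the other 21 autosomes it ranged from 6.92% to 17.7%. Of the cluster peaks 115 had 2 rows, 40 had 3 and 4 had 4, the most in the clusters. Peaks with 4 or more rows were 0.765% of the cluster peaks (0.298 to 1.95%) and 1.60% of the rest (1.13 to 2.28%), where the most was 6 rows. The 4 with the most rows were chr19:22782861-22783155, chr19:38183512-38183813, chr19:57907769-57907970 and chr19:58362242-58362998.

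Repeats were most common in cluster 4, 47.4% (32.5 to 62.7%), and in cluster 1, 40% (28.6 to 52.6%). Cluster 6 followed with 36.8% (29.1 to 45.3%) and cluster 3 with 36.2% (25.1 to 49.1%). Cluster 2, with 20.9% (15.5 to 27.6%), and cluster 5, with 17.7% (10.2 to 29.0%), were below the rest of the chromosome. The stretches ranged from 14.6 to 32%, so 4 clusters were above every stretch and 2 within their range. Without cluster 2 the share in the clusters was 35.0%.

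Repeated peaks came in blocks, so the intervals of the shares listed more than once, which assume independent peaks, are too narrow. After a repeated peak in a cluster the next was repeated in 93 of 157 cases (59.2%, 51.4 to 66.6%), and after a peak listed once in 65 of 360 (18.1%, 14.4 to 22.4%). The rest of chromosome 19 had 52.0% (47.4 to 56.6%) and 15.0% (13.2 to 17.0%). The longest block was 12 consecutive peaks with 2 to 4 rows in cluster 6, chr19:57833483-58010543. Others were 8 peaks at chr19:12507718-12664835 in cluster 1 and 7 at chr19:44562418-44618990 in cluster 4. Within cluster 6 the share went from 12.5% (5.46 to 26.1%) in the first 1 Mb to 37.5% (26.7 to 49.7%) in the next and 69.0% (50.8 to 82.7%) in the last 0.9 Mb. Width did not differ detectably with repetition in the clusters, with medians of 300 bp (277 to 337) for repeated peaks and 297.5 bp (284 to 316) for peaks listed once.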

How the data were processed

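Per the labels' protocols, crosslinked HepG2 chromatin was sonicated, precipitated and sequenced on semiconductor instruments. The submitters' processing notes name BWA and hg19. Per the file header, the authors trimmed reads, removed duplicates and called peaks with MACS, the LSD2 siRNA H3K4me1 library over the GL3 siRNA H3K4me1 library, with a fragment length of 128 bp, a p-value cutoff of 1e-05 and an enrichment factor of 32. Neither input library is named in the call. The deposited columns are chromosome, start and end in bp, with no score, so all peaks count alike. How reads that map to several places were treated is not given in the sources used here, and zinc finger genes hold similar sequences. The depth is unknown, and peaks higher in the control library were not analysed here.

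The 180505 rows were reduced to 160601 distinct peaks. Positions count from 1. For the clusters, density was peaks per Mb of their full length between the fixed limits. Elsewhere it was peaks per Mb from the first to the last peak of a chromosome, without peak-free gaps over 1 Mb. For the rest of chromosome 19 the length of the clusters was taken out as well. Intervals (95%) are exact Poisson for densities, exact conditional binomial for ratios, Wilson for shares, Newcombe for their differences and order-statistic for medians. The intervals of the density ratio, the median width and the peak count were tested first on simulated peaks placed independently. The real peaks are not independent, so the coverage found there need not hold here. The other steps were not tested in this way. Python 3.11.15, SciPy 1.17.1, pandas 2.3.3 and NumPy 2.4.6 were used. Named regions followed a rule: the 10 widest cluster peaks and, per cluster, its widest peak, longest gap, fullest 100 kb window and the peaks nearest to its limits. Runs, blocks of repeated rows, short gaps and the 1 Mb windows were added after the data were seen. The members and lists were chosen with earlier results of these data known. No genome of hg19 was used, so no peak sequence is printed.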

Additional observations from a re-analysis of the deposited data

How the results depend on the processing

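Of 96 alternative values, 87 stayed within the interval used for the value reported. This was its 95% interval, except for the difference in median width. There the range used, -46 to -20 bp, carries only the error of the cluster median and not that of the rest. The 87 include all 12 alternatives for the difference in median width and all 14 for the ratio of peaks of at least 600 bp. Many alternatives share most peaks with the value reported, and several others measure a different quantity. The tally is therefore no measure of robustness. The density ratio of 0.971 became 0.852 by covered bases and 0.793 when only peaks of the median width or more were counted, and was between 0.931 and 1.04 under the other alternatives. It passed 1 without cluster 2 (1.03), by every row (1.03), with long gaps counted (1.04) and in windows with a peak (1.002), all within its interval of 0.880 to 1.07. The ratio of density just inside to just outside the limits went from 1.01 to 0.979 with bins of 250 kb, so neither ratio has a settled direction. The median cluster width stayed between 296 and 302 bp, its difference from the rest between -44 and -31 bp, and the ratio for peaks of at least 600 bp between 0.229 and 0.516, the last with peaks within 1 kb merged. The difference in width and the 600 bp ratio, with their alternatives, were chosen after seeing the data.

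The share with a neighbour within 5 kb was 34.0% with peaks within 1 kb merged (34.6% in the rest), 11.5% within 1 kb (14.0%) and 81.3% within 20 kb (84.0%). Without cluster 2 it was 43.3%, against 43.2% in the rest. The share of wide peaks was 44.7% at the median width (54.8% in the rest) and 0% at 1 kb (0.588%). The share listed more than once was 35.0% without cluster 2, and 8.41% of peaks had more than 2 rows (6.47% in the rest). Leaving out each cluster in turn kept the density ratio between 0.942 and 1.03.

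With 1 library per group, none was left out in turn and no paired analysis was possible. The unknown depth limits every density and width.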
